A study of Mus musculus with 19 samples.

Results

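The nuclear genes for subunits of the oxidative phosphorylation complexes were followed in sciatic nerve of mice with and without diabetes and rosiglitazone. The members were a fixed list of 59 genes: 27 of complex I, 4 of complex II, 6 of complex III, cytochrome c, 10 of complex IV and 11 of complex V. Of these, 57 had a probe set of their own among the 18193 genes named on the array. Ndufs6 was measured only by a probe set that a second gene shares, and Cox7b had no named probe set here. Ndufb4 lay at a log2 intensity of 3.86 over all arrays, under the filter of 5.54, so 56 members were tested, 37 of them with several probe sets on the array, of which the brightest was used. For 8 members that probe set is of the _s_at type and for 5 of the _x_at type, which can also bind related transcripts. The tested members were 25 of complex I, all 4 of complex II, all 6 of complex III, cytochrome c, 9 of complex IV and all 11 of complex V.

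Mice were of the inbred strain DBA/2J, and 1 array was run per mouse on Peripheral Nerve RNA. Control mice on vehicle had no treatment named in the labels (4 arrays, CV702 to CV705). Diabetic mice on vehicle had STZ (streptozotocin, which destroys insulin-producing cells of the pancreas, 5 arrays, DV706 to DV710). Control mice on rosiglitazone, which activates the nuclear receptor PPAR gamma, gave the arrays CR711 to CR715, and mice with STZ and rosiglitazone gave DR716 to DR720, 5 arrays each. Of 5 mice per group, 1 control array was excluded by the authors after quality control. Doses, the length of treatment and the age of the mice are not given in the sources used here. All values below are log2 of the deposited RMA intensity, so a difference of 1 is a doubling.

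Oxidative phosphorylation takes electrons from NADH (complex I) and succinate (complex II) through coenzyme Q to complex III, then by cytochrome c to complex IV, where oxygen is reduced. Complexes I, III and IV pump protons across the inner mitochondrial membrane, and complex V, the ATP synthase, makes ATP as the protons return. Most subunits are encoded in the nucleus and imported, and a small core is encoded by mitochondrial DNA and is not in the list. In peripheral nerve, axons, Schwann cells and cells of the blood vessels all hold mitochondria, while the mRNA of sensory neurons is made in cell bodies outside the nerve.

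Several of these genes are known targets of NRF1, of the estrogen-related receptors (ERR) and of YY1. Their core letters were searched on both strands in 300-base RefSeq promoters (GRCm38.p6, 250 bases before to 50 after the start), of which 50 belonged to 45 of the 56 members. The NRF1 letters GCGCATGCG stood in 5 of the 50 (10%), those of Atp5g2, Cox6a1, Cycs, Ndufa8 and Uqcrc1, against 1.75% of all 32851 promoters. The YY1 letters AAGATGGCG stood in 5 (10%), those of Atp5j, Ndufa9, Ndufc1, Ndufs4 and Ndufs7, against 1.4% of all promoters. The ERR letters TCAAGGTCA stood in 2 (4%), those of Atp5g3 and Sdhd, against 0.423%. A match is a description of the letters, not of a bound site. The promoters of the 4 members with a match among those named below for rosiglitazone in diabetic mice are shown. They run 5′ to 3′ in the direction of transcription, with the matched letters in capitals. Members without a match differed as much there, such as Ndufa4 (0.85) and Sdhc (0.42). The differences of the 4 rest in part on arrays DV706 and DV707, as given below. A link between the letters and the differences was not tested. All 4 genes lie on the minus strand. Cycs (cytochrome c, chr6:50566520-50566819) has the NRF1 letters on the opposite strand from 61 bases before the start, and Ndufa8 (chr2:36049289-36049588) likewise from 9 bases before it. Atp5g2 (chr15:102670998-102671297) has overlapping NRF1 matches on both strands from 42 bases before the start, and Ndufs4 (chr13:114388045-114388344) has the YY1 letters from 35 bases after it.
Cycs: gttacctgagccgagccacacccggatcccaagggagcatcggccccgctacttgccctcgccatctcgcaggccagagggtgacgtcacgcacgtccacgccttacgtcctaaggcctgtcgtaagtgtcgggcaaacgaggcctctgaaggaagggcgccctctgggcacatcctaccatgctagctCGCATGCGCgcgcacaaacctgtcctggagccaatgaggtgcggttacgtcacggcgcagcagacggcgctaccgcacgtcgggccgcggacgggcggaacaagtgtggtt
Ndufa8: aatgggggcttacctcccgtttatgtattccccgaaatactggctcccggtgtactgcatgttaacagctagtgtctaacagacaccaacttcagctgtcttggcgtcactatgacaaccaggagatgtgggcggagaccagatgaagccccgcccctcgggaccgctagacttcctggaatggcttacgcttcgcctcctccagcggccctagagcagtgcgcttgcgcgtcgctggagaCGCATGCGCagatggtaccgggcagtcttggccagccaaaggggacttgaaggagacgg
Atp5g2: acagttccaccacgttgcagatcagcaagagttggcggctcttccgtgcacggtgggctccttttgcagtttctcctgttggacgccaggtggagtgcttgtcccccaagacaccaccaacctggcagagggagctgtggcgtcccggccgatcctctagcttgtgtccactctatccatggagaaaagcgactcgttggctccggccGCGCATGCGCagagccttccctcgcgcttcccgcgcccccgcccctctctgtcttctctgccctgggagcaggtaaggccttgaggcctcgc
Ndufs4: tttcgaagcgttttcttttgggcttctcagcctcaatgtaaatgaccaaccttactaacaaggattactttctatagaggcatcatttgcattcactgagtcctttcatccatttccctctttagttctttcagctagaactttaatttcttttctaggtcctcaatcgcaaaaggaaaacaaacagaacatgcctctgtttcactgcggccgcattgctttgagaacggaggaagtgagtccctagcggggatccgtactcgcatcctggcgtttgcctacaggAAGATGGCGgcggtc

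Arrays DV706 and DV707 stood apart. The log2 difference between the 3′ and 5′ control probe sets, which widens as RNA is degraded or copied short, was 3.71 and 4.38 for Gapdh there and 1.00 to 1.75 on the other 17 arrays. For beta-actin (Actb) this difference was at least 2.73 on DV706 and DV707. It was 1.29 on DV708, 1.31 on CR711 and 1.70 on DR716, and 0.47 to 0.95 on the rest. Values given without DV706 and DV707 still include DV708, CR711 or DR716 where their groups are compared. The part of RNA quality in those values was not tested. Array CR715 had the highest adipocyte marker level of all arrays (2.86 above the all-array mean, 9 of 11 markers measured) and a sensory neuron level of -3.40 (11 of 14 markers). That level was also low on DR716 (-3.51), DV709 (-3.50), DV707 (-3.28) and DV706 (-2.98), and lay between -0.07 and 2.11 on the other 14 arrays. Of the list of 14 myelin and Schwann cell markers, 10 were measured, among them Mbp (13.83 to 14.44) and Pmp22 (13.82 to 14.34), and the level of the list was lowest on CR715 (-0.98) and DR716 (-0.54). Most member results that rest on DV706, DV707 or CR715 are given with and without them. In a bulk sample, fewer cells of a type and less RNA per cell cannot be told apart.

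No member passed the test in any of the 5 comparisons (limma, Benjamini-Hochberg over 13460 genes at 0.05), and neither did any other gene (0% called in each). The smallest adjusted p of a member was 0.238 for diabetes under vehicle, 0.497 for rosiglitazone in diabetic mice, and 0.748 or more elsewhere. Under vehicle, diabetic mice had 24 of 56 members higher than controls, where 52.9% of all genes were higher. The members' median difference was -0.03 against 0.03 over all genes. With rosiglitazone in diabetic mice, 37 of 56 members lay higher (47.2% of all genes), with a median of 0.10 against -0.02. With rosiglitazone in control mice, 49 of 56 lay higher (50.6% of all genes), with a median of 0.10 against 0.00. Between the 2 rosiglitazone groups, 16 of 56 were higher in the diabetic mice (51.7% of all genes), with a median of -0.03 against 0.01. The first 2 of these share the 5 diabetic vehicle arrays, so a low value on one of these arrays moves them in opposite directions.

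**Figure D1:**
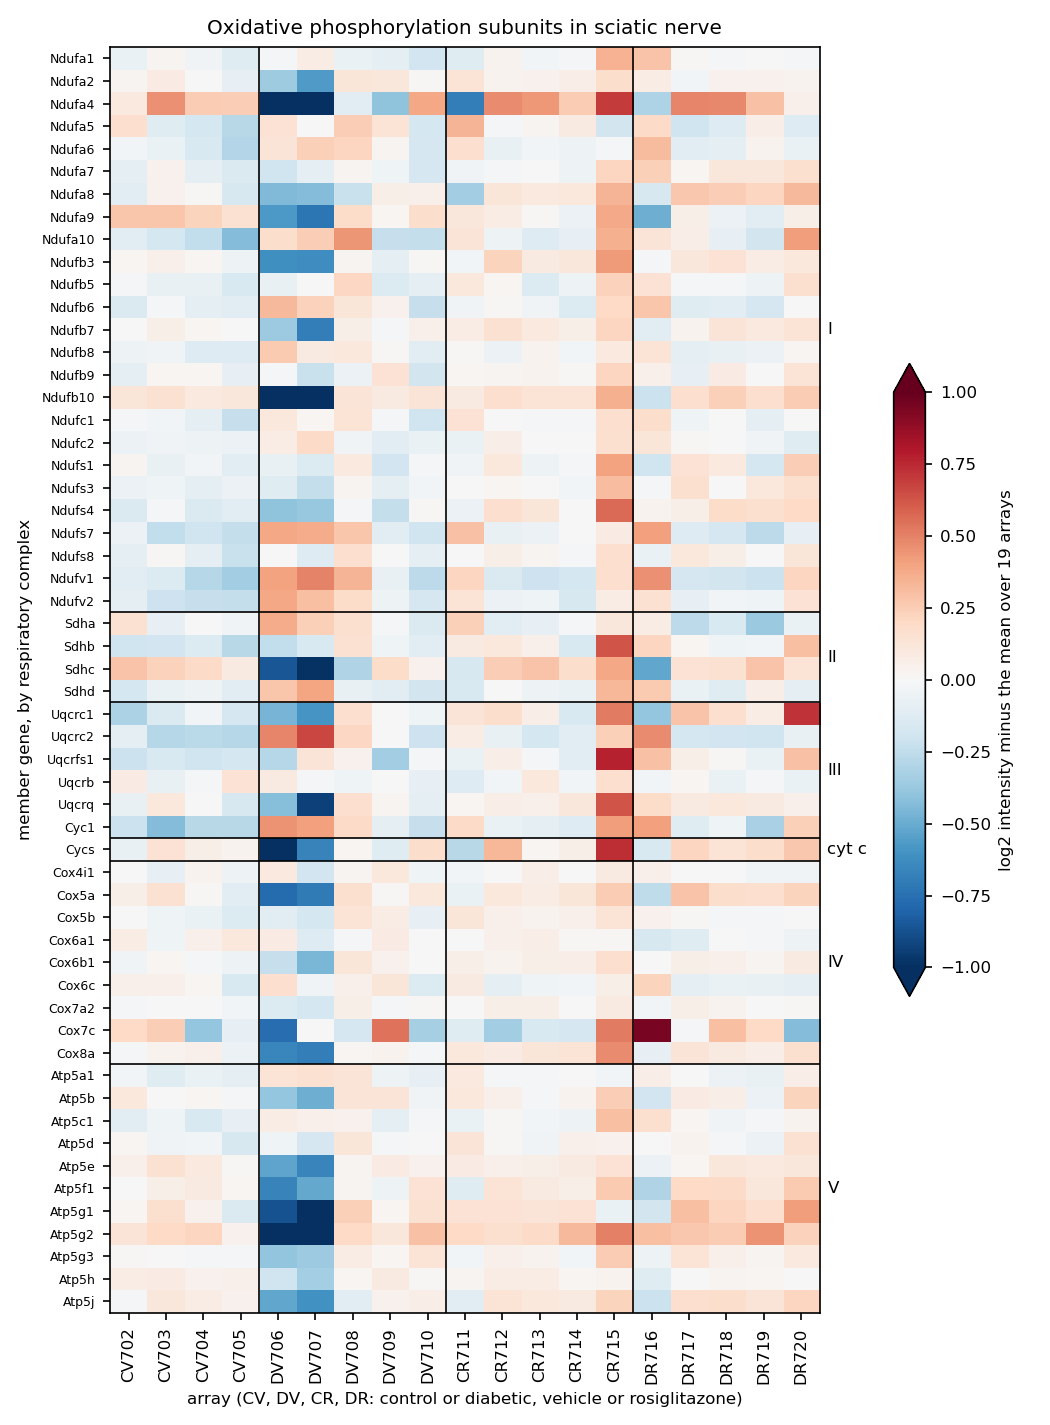
Log2 intensity of each of the 56 tested members (rows, by complex) on the 19 arrays (columns, by group), centred on the gene's mean over the arrays; colour gives the difference from that mean. DV706 and DV707 are low for many rows and high for a few, and CR715 is the highest array for 29 of the 56 rows.

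The median member varied less within each group than the median gene tested. The median standard deviation (SD) of a member was 0.06 in the control vehicle group, 0.23 in the diabetic vehicle group, 0.13 in the control rosiglitazone group and 0.12 in the diabetic rosiglitazone group. Over all genes tested it was 0.15, 0.40, 0.27 and 0.28. Most members were bright, and a comparison with genes of like brightness was not made. In control vehicle nerve the SD ran from 0.01 for Ndufc2, a membrane-arm subunit of complex I, to 0.29 for Cox7c, whose probe set was dim (7.27 over all arrays). In diabetic vehicle nerve the largest was 1.25, for Atp5g2. The model's 95% confidence interval had a median half-width of 0.26 over the members for diabetes under vehicle, and of 0.25 for rosiglitazone in diabetic mice.

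**Figure D2:**
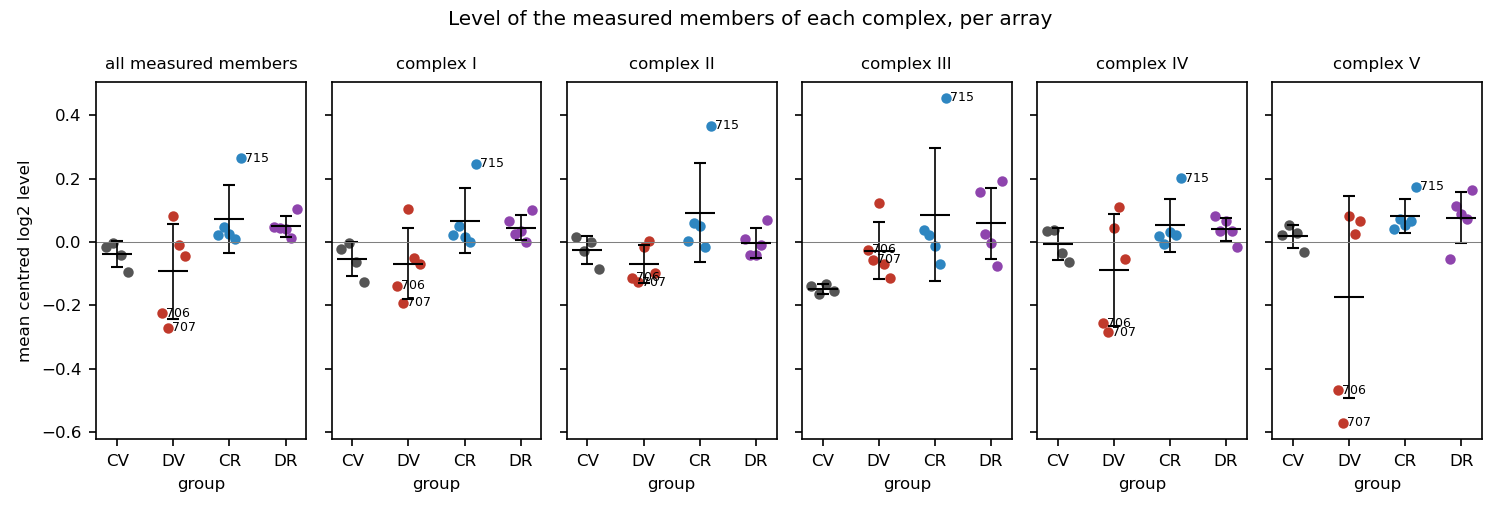
Mean centred log2 level of the members of each complex on each array (points), with the mean and SD of each group (black bars), for control vehicle (CV), diabetic vehicle (DV), control rosiglitazone (CR) and diabetic rosiglitazone (DR). DV706 and DV707 lie below all the other arrays in every panel except complex III, and furthest below in complex V (-0.47 and -0.57). In complex III, but in no other panel, the 4 CV arrays (-0.17 to -0.13) lie below all 15 others.

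Among the complexes, complex V lay lowest in diabetic vehicle nerve, with its lowest values on 2 arrays, while members of complexes I and III lay on both sides. The median difference between diabetic and control mice under vehicle was -0.16 for the 11 members of complex V, -0.05 for complex IV, -0.01 for complex I, 0.03 for complex III and 0.12 for complex II. DV706 and DV707 both lay below all 17 other arrays for 25 of 56 members, against 11.6% of all genes tested. That held for 8 of 11 members of complex V, 4 of 9 of complex IV, 9 of 25 of complex I, 2 of 6 of complex III, 1 of 4 of complex II and cytochrome c. They both lay above all 17 others for 3 members, Atp5a1, Ndufv2 and Uqcrc2, against 14.6% of all genes. Without these arrays, 40 of 56 members were higher in diabetic mice. The median was 0.05, against 0.01 over all genes, and complex V's median was 0.06. The share of all genes higher in that fit is not given here. Centring each array on its own median, which moved the median of all genes to 0.12, gave 34 of 56 members higher and a median of 0.07.

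Of the 56 members, 8 had an unadjusted p under 0.05 for diabetes under vehicle (5 higher and 3 lower), which is 14.3%, against 18.1% of all genes. By direction, 10.7% of all genes were higher and 7.39% lower at that threshold. Without DV706 and DV707, 0 of 56 members had such a p. The count over all genes in that fit is not given here, so this does not set the members apart from other genes. No member separated the groups without overlap, whereas 2.63% of all genes were higher and 2.43% lower on every diabetic array. Leaving out 1 array gave 3 higher without any of CV703, CV704, CV705, DV706, DV707 or DV708, and 10 without DV710. It gave 0 lower without DV706 or DV707, 1 without CV703, 8 without DV708, and 10 without DV709 or DV710. Over all 13460 genes, the counts higher ran from 750 without DV706 to 2322 without DV710. The counts lower ran from 473 without DV706 to 1610 without DV710. Sensory neuron marker levels ran from -3.50 to 2.11 on the diabetic vehicle arrays and from 0.32 to 1.15 on the control vehicle arrays (11 of 11 tested markers lower in diabetic mice). Endothelial markers were higher in 10 of 12 (median 0.51, 3 without overlap), and fibroblast markers lower in 8 of 10 (median -0.15, 3 without overlap). The part of these markers in the members' differences was not tested.

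**Figure D3:**
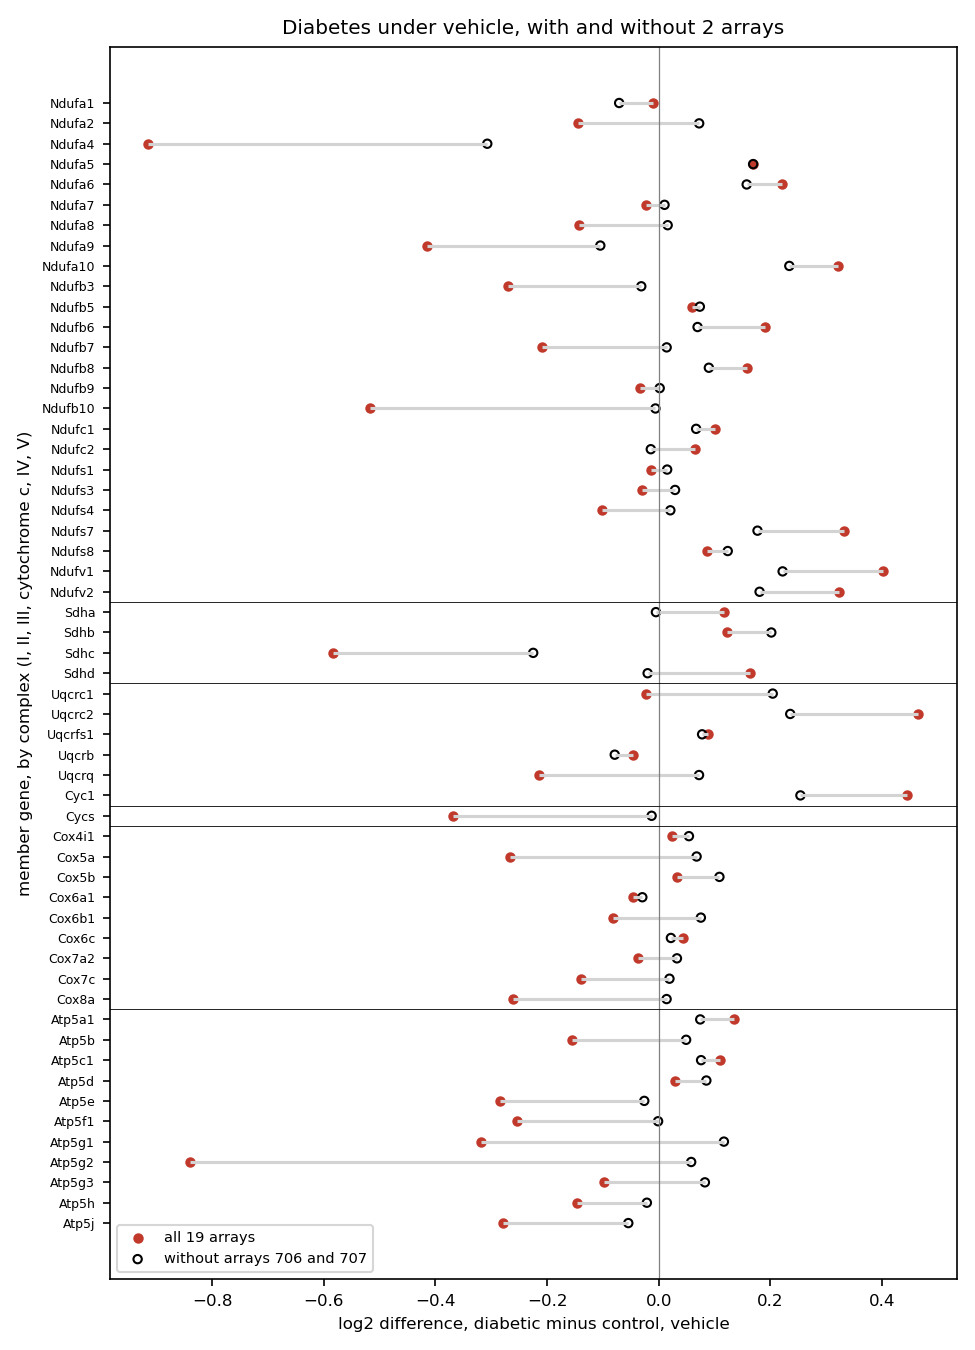
Log2 difference of each tested member between diabetic and control mice under vehicle, by complex, with all arrays and without DV706 and DV707. The largest negative values, Ndufa4 (-0.91) and Atp5g2 (-0.84), move to -0.31 and 0.06 without these arrays.

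In complex I, 12 of 25 members lay higher and 13 lower in diabetic vehicle nerve. Ndufv1 binds NADH and the flavin, and Ndufv2 carries an iron-sulfur cluster next to it. Ndufv2 read 12.56, 12.44, 12.41 and 12.41 on the control vehicle arrays and 13.03, 12.95, 12.83, 12.60 and 12.48 on the diabetic vehicle arrays. All diabetic arrays but DV710 lay above every control array. The difference was 0.32 (SE 0.11, adjusted p = 0.238, limma), and 0.18 without DV706 and DV707. All 3 probe sets of Ndufv2 gave the same direction. Ndufv1 differed by 0.40 (12.42 ± 0.11, SD, in 4 control and 12.82 ± 0.33 in 5 diabetic arrays), and by 0.22 without those 2 arrays. Ndufs7, an iron-sulfur subunit at the quinone end of the chain, differed by 0.33, and by 0.18 without them. Ndufs1, the largest iron-sulfur subunit, was 11.31 ± 0.06 in controls and 11.30 ± 0.11 in diabetic mice.

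Ndufa4, long listed with complex I and later assigned to complex IV, had the largest difference of any member. It read 12.27, 12.63, 12.43 and 12.42 on the control vehicle arrays and 10.61, 10.62, 12.06, 11.77 and 12.56 on the diabetic vehicle arrays. DV706 and DV707 were lowest, DV708 and DV709 lay below every control array, and DV710 lay within the control range. The difference was -0.91 (SE 0.36, adjusted p = 0.244, limma), and -0.31 without DV706 and DV707. Ndufa9, an accessory subunit near the quinone site, read 12.26, 12.26, 12.21 and 12.14 in control nerve and 11.41, 11.26, 12.17, 12.01 and 12.16 in diabetic nerve. Its difference was -0.42 (SE 0.18, adjusted p = 0.251, limma) and -0.10 without DV706 and DV707. Ndufb10, of the membrane arm, was 12.17 and 11.92 on DV706 and DV707 and 12.99 to 13.57 on the other 17 arrays.

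In complex II, which is also an enzyme of the citric acid cycle, the membrane anchor Sdhc lay lower. Sdhc read 12.06, 12.01, 11.97 and 11.87 in control vehicle nerve and 10.92, 10.79, 11.48, 11.96 and 11.82 in diabetic vehicle nerve. The 2 groups overlapped through DV709. The difference was -0.58 (SE 0.22, adjusted p = 0.238, limma) and -0.22 without DV706 and DV707, and both of its probe sets gave this direction. With all arrays the catalytic subunits differed less: Sdha, the flavoprotein, by 0.12 and Sdhb, the iron-sulfur protein, by 0.12. Without DV706 and DV707 the diabetic mean of Sdha was 12.68, against 12.68 in control. That of Sdhb was 12.17, against 11.97.

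In complex III, Uqcrc2 and Cyc1 lay higher in diabetic nerve. Uqcrc2, a core protein, read 12.88, 12.69, 12.71 and 12.70 in control and 13.47, 13.65, 13.19, 12.98 and 12.77 in diabetic vehicle nerve. The groups overlapped only between CV702 and DV710. The difference was 0.47 (SE 0.17, adjusted p = 0.238, limma) and 0.24 without DV706 and DV707. Cyc1, the cytochrome c1 that hands electrons to cytochrome c, read 11.17, 10.95, 11.10 and 11.11 in control and 11.83, 11.79, 11.57, 11.28 and 11.15 in diabetic nerve. It differed by 0.44 (SE 0.17), and by 0.25 without DV706 and DV707. Uqcrfs1, the Rieske iron-sulfur protein, was 11.38 ± 0.03 in control and 11.47 ± 0.21 in diabetic nerve.

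Cytochrome c, the mobile carrier whose promoter is printed above, read 11.91, 12.13, 12.04 and 12.02 in control vehicle and 10.92, 11.32, 12.01, 11.87 and 12.16 in diabetic vehicle nerve. The difference was -0.37, and -0.01 without DV706 and DV707, on which it was lowest of all arrays. Its other bright probe sets moved less: one with a mean of 11.82 gave 0.14 and one of 11.67 gave -0.17. Cox5a, a matrix-side subunit of complex IV, was 12.21 and 12.26 on DV706 and DV707 with the probe set used. Its other 2 probe sets were 12.32 and 12.18, and 12.23 and 12.16, on these arrays, where their control means were 12.49 and 12.39. For both genes the depth of the low values thus differed between probe sets of 1 gene.

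**Figure D4:**
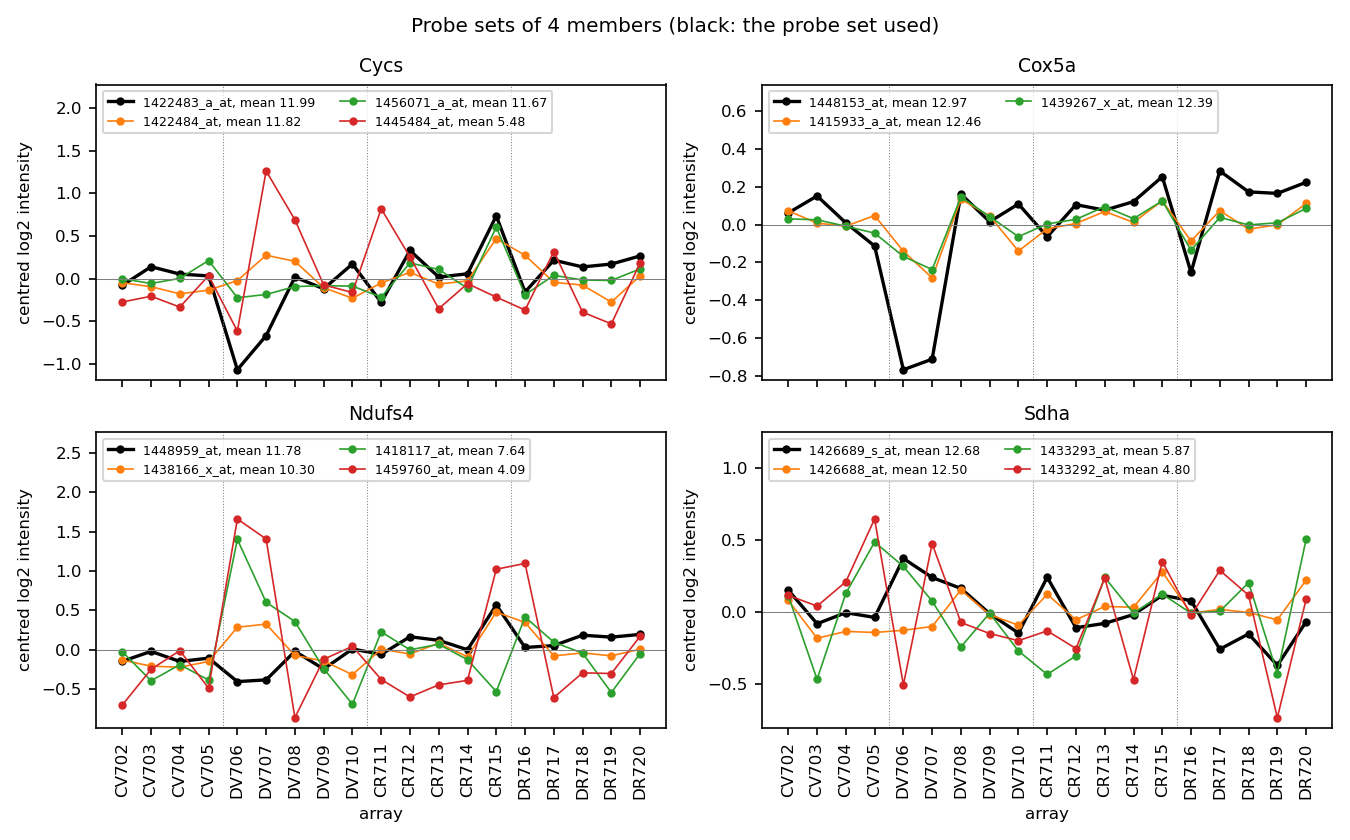
Centred log2 intensity of every probe set of Cycs, Cox5a, Ndufs4 and Sdha on the 19 arrays, with the probe set used in black. For Cycs and Cox5a the probe set used is the lowest on DV706 and DV707, and others of the same gene move less or the other way.

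In complex IV, 6 of 9 members were lower in diabetic vehicle nerve, and none had an unadjusted p under 0.05. Cox8a, a small transmembrane subunit, had the smallest p of the complex. It read 12.48, 12.53, 12.55 and 12.44 in control and 11.85, 11.81, 12.52, 12.54 and 12.49 in diabetic nerve. The difference was -0.26 (SE 0.15, adjusted p = 0.342, limma), and 0.01 without DV706 and DV707, so its direction turned. Cox4i1, the regulatory subunit found in most tissues, was 13.42 ± 0.05 in control and 13.44 ± 0.12 in diabetic nerve.

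In complex V, 8 of 11 members were lower in diabetic vehicle nerve. Atp5g1, Atp5g2 and Atp5g3 each encode the same mature c subunit, the ring that turns as protons pass, behind different import sequences. Atp5g2 read 12.13, 12.20, 12.21 and 12.05 in control vehicle and 10.24, 9.68, 12.20, 12.12 and 12.30 in diabetic vehicle nerve. The other 3 diabetic arrays were within or above the control range. The difference was -0.84 (SE 0.41) and 0.06 without DV706 and DV707. Atp5g1 was 12.09 and 11.94 on those arrays and 12.78 to 13.38 on the others, and Atp5g3 13.11 and 13.14 against 13.45 to 13.76. The probe set of Atp5g2 thus lay furthest below its range on the other arrays, and its 2 other probe sets were dim (6.02 and 2.54). Atp5e, the epsilon subunit of the central stalk, had the smallest p, with a difference of -0.28 (SE 0.14, adjusted p = 0.276, limma) and -0.03 without the 2 arrays. Of the catalytic head, Atp5a1 (alpha) was 13.57 ± 0.04 in control and 13.70 ± 0.12 in diabetic nerve, and Atp5b (beta) was 13.07 ± 0.05 and 12.92 ± 0.29. Atp5b was 12.66 and 12.56 on DV706 and DV707. Without these arrays the diabetic means were 13.64 for Atp5a1 and 13.12 for Atp5b, both above the control mean.

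Rosiglitazone in diabetic mice gave 13 of 56 members with an unadjusted p under 0.05 (12 higher, 1 lower), or 23.2%, against 9.7% of all genes. By direction, 4.13% of all genes were higher and 5.56% lower at that threshold. Without DV706 and DV707 the only such member was Ndufa7, 37 of 56 members lay higher, and the median was 0.04. The median over all genes was then -0.01, and the all-gene counts of that fit are not given here. Leaving out 1 array gave between 3 members higher (without DV706 or DV707) and 19 (without DV708), with 6 without DR717 or DR720 and 7 without DR718. Over all 13460 genes, the counts higher ran from 175 without DV706 to 1160 without DV710. Skeletal muscle markers also lay higher with rosiglitazone here, 16 of 16 with a median of 1.35, as did 8 of 9 adipocyte markers (0.96) and 11 of 11 sensory neuron markers (1.73), while 11 of 12 endothelial markers lay lower (-0.24). The part of these markers in the members' differences was not tested. With each array centred on its median, which moved the median of all genes to -0.10, 29 of 56 lay higher. The medians were 0.16 in complex V, 0.10 in III, 0.07 in I and IV and 0.06 in II, and complex V's was 0.01 without DV706 and DV707.

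Ndufa7, an accessory subunit of complex I, was the one member with an unadjusted p under 0.05 also without those arrays. It read 12.54, 12.65, 12.76, 12.69 and 12.57 in diabetic vehicle and 12.97, 12.75, 12.85, 12.84 and 12.89 in diabetic rosiglitazone nerve. All treated arrays but DR717 lay above every vehicle array. The difference was 0.22 (SE 0.08, adjusted p = 0.497, limma), 0.19 without DV706 and DV707, and all 5 of its probe sets gave this direction. Ndufs4, an accessory subunit needed for a stable complex I, read 11.38, 11.40, 11.76, 11.54 and 11.79 under vehicle and 11.81, 11.84, 11.97, 11.94 and 11.98 with rosiglitazone. It was the only member whose groups did not overlap in this comparison (0.245% of all genes were higher in that way). The difference was 0.33 (SE 0.12, adjusted p = 0.497, limma) and 0.21 without DV706 and DV707, but 2 of its 4 probe sets pointed the other way, and their mean gave -0.09. Ndufa8, another accessory subunit, read 11.80, 11.81, 12.02, 12.30 and 12.30 under vehicle and 12.08, 12.51, 12.49, 12.46 and 12.57 with rosiglitazone. All treated arrays but DR716 lay above every vehicle array, and the difference of 0.37 (SE 0.14) became 0.21 without DV706 and DV707.

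Sdha was the only member lower at an unadjusted p under 0.05. It read 13.05, 12.92, 12.84, 12.66 and 12.53 under vehicle and 12.76, 12.42, 12.52, 12.31 and 12.61 with rosiglitazone, in overlapping groups. The difference was -0.28 (SE 0.11, adjusted p = 0.497, limma) and -0.16 without DV706 and DV707, and the other 3 probe sets of Sdha gave 0.07, 0.08 and 0.04. Cycs read 11.83, 12.20, 12.13, 12.16 and 12.25 with rosiglitazone, a difference of 0.46 (SE 0.21) that became 0.10 without DV706 and DV707. Cox8a, at 12.42, 12.63, 12.59, 12.57 and 12.66 with rosiglitazone, went from 0.33 (SE 0.14) to 0.06. Atp5g2, at 12.30, 12.27, 12.26, 12.45 and 12.23, went from 0.99 (SE 0.39) to 0.10. For these 3 genes the treated arrays lay near the 3 remaining vehicle arrays.

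Rosiglitazone in control mice involved neither DV706 nor DV707, and here the members lay higher most evenly: 23 of 25 in complex I, 3 of 4 in II, 5 of 6 in III, cytochrome c, 7 of 9 in IV and 10 of 11 in V. The differences were small, from -0.13 (Ndufa9) to 0.36 (Cyc1), and the median was largest in complex III (0.27), with 0.11 in I, 0.07 in II, 0.06 in IV and 0.07 in V. The share with an unadjusted p under 0.05 was 5.36% (3 of 56, all higher), against 2.83% of all genes (1.48% higher). It was 1 of 56 without any of CV702, CV704, CV705, DR717 or DR718, which share the model's spread. Over all 13460 genes, the counts higher with 1 array left out ran from 111 without CV705 to 317 without CR713. The groups did not overlap for 6 members, all higher with rosiglitazone (Ndufs3, Uqcrfs1, Cyc1, Cox5b, Cox6b1 and Cox8a), where 1.58% of all genes were higher in that way. The count of 49 members higher was 49 and 50 with arrays centred on their median and with quantile normalization.

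CR715 was the highest of all 19 arrays for 29 of 56 members, against 10.6% of all genes. Its mean centred level over the members was 0.26, and those of the other control rosiglitazone arrays were 0.01 to 0.05. In this comparison 9 of 9 adipocyte markers lay higher with rosiglitazone (median 1.43), 16 of 16 skeletal muscle markers (0.93) and 5 of 6 brown fat markers (0.29), while 10 of 10 myelin and Schwann cell markers lay lower (-0.10). The adipocyte marker level was 2.86 on CR715 and -2.93 to 1.10 on the control vehicle arrays, and the skeletal muscle level was 2.40 and -2.24 to 0.52. Cox8b, a complex IV subunit of muscle and brown fat that is not a member, read 13.30 on CR715 and 5.86 to 12.68 elsewhere. Without CR715, 45 of 56 members lay higher. The median was 0.06 in place of 0.10, where that of all genes was 0.02 in place of 0.00. Complex III's median was 0.16 in place of 0.27 and complex V's 0.02 in place of 0.07. In that fit 0 members had an unadjusted p under 0.05, and its all-gene shares are not given here. The part of adipose or muscle RNA in the remaining difference was not tested.

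**Figure D5:**
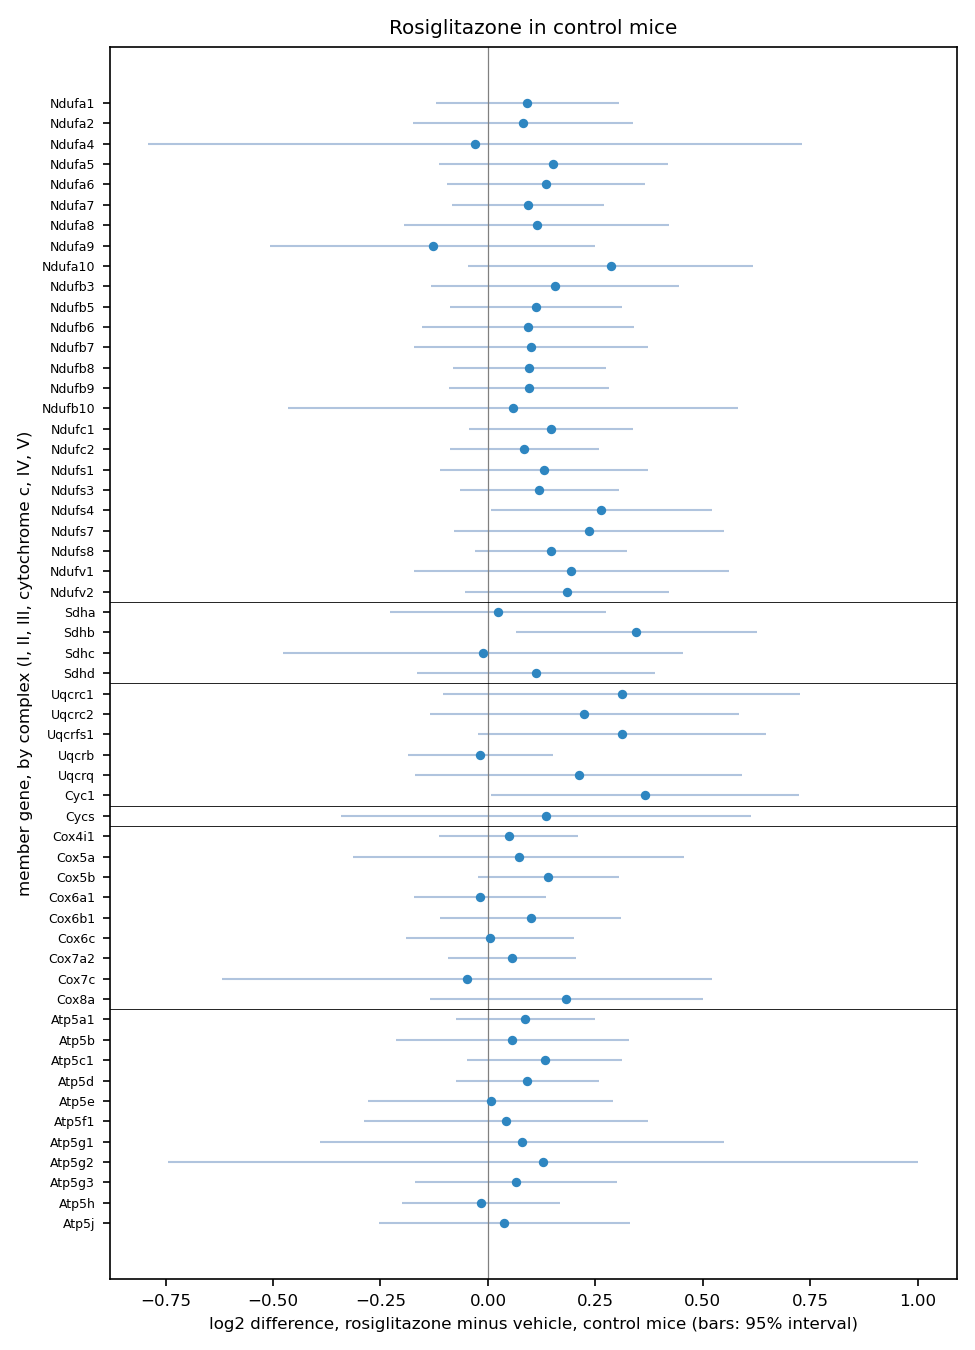
Log2 difference of each tested member between rosiglitazone and vehicle in control mice (points) with its 95% confidence interval (bars), by complex. Of 56 points, 49 lie above 0, and 3 intervals (Ndufs4, Sdhb and Cyc1) do not cross it; no adjusted p was below 0.05.

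Cyc1 showed the largest of these differences. It read 10.95 to 11.17 on the 4 control vehicle arrays and 11.58, 11.31, 11.29, 11.25 and 11.80 with rosiglitazone, with no overlap (0.36, SE 0.17, and 0.28 without CR715). Uqcrfs1 read 11.35, 11.41, 11.37 and 11.39 under vehicle and 11.50, 11.63, 11.54, 11.45 and 12.33 with rosiglitazone, also with no overlap. Its difference was 0.31, and 0.15 without CR715. Over the complex III members together, the 4 control vehicle arrays had mean centred levels of -0.17 to -0.13, below all 15 other arrays, of which the lowest was DV710 at -0.11. This held for none of the other complexes, nor for cytochrome c or all members together.

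Sdhb read 11.98, 11.98, 12.04 and 11.89 under vehicle and 12.26, 12.27, 12.22, 12.02 and 12.80 with rosiglitazone in control mice. All treated arrays but CR714 lay above the vehicle range (0.35, SE 0.13, adjusted p = 1.00, limma), and the difference was 0.22 without CR715. Ndufs4 read 11.64, 11.76, 11.63 and 11.68 under vehicle and 11.72, 11.95, 11.90, 11.78 and 12.35 with rosiglitazone (0.26, SE 0.12, and 0.16 without CR715), and here all 4 of its probe sets gave the same direction. Ndufa10, an accessory subunit of complex I, differed by 0.29 (SE 0.16, and 0.21 without CR715) and Ndufs8, an iron-sulfur subunit, by 0.15 (SE 0.08, and 0.12 without it), with all 6 probe sets of Ndufs8 in that direction. Cox5b, a matrix-side subunit of complex IV, had a narrow spread, at 13.93 to 14.06 and 14.10 to 14.20, without overlap. Atp5c1, the rotating gamma subunit, was 13.38 ± 0.05 and 13.51 ± 0.15, a difference of 0.13 that became 0.07 without CR715.

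Between diabetic and control mice that both received rosiglitazone, 0 of 56 members had an unadjusted p under 0.05, against 1.29% of all genes (limma). The differences ran from -0.21 (Ndufa9) to 0.26 (Cox7c, dim). Cox6a1, a complex IV subunit, was the only member without overlap, at 13.69 ± 0.03 in control and 13.59 ± 0.07 in diabetic mice (0.223% of all genes were lower in that way). Ndufa7 differed by 0.11, Ndufa8 by 0.12, Sdha by -0.18, Uqcrb, a small subunit of complex III, by -0.05, and Atp5h, of the stator stalk, by -0.06. Single arrays moved several of these: Ndufa8 was 0.01 without CR711 and 0.20 without DR716, Uqcrb -0.01 without CR715, Ndufa9 -0.12 without DR716, and Atp5h -0.03 without DR716. The direction of the list turned without CR715: 31 of 56 members were then higher in diabetic mice, with a median of 0.02. The median over all genes was then -0.001, and the share of all genes higher is not given here.

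The interaction asks whether rosiglitazone differed in its effect between diabetic and control mice. Here too 0 of 56 members had an unadjusted p under 0.05, against 4.77% of all genes (limma), and 29 were above 0 (48.2% of all genes). The smallest p-values belonged to Uqcrc2 (-0.49, SE 0.23), Ndufs7 (-0.43, SE 0.20) and Cyc1 (-0.48, SE 0.23), with adjusted p = 0.748 in each. All 3 lay higher with rosiglitazone than under vehicle in control mice (0.22, 0.23 and 0.36) and lower in diabetic mice (-0.27, -0.19 and -0.11), where without DV706 and DV707 the differences were -0.04, -0.04 and 0.08. Without DV706 and DV707 the interaction was -0.26, -0.27 and -0.29, and 10 of 56 members were above 0. The share of all genes above 0 in that fit is not given here.

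Levels in both rosiglitazone groups are given for members of each complex. In control rosiglitazone and diabetic rosiglitazone nerve, Ndufs1 was 11.44 ± 0.19 and 11.38 ± 0.20, and Ndufv1 12.61 ± 0.20 and 12.66 ± 0.30. Sdha was 12.71 ± 0.15 and 12.52 ± 0.17, and Sdhb 12.32 ± 0.29 and 12.26 ± 0.15. Uqcrfs1 was 11.69 ± 0.36 and 11.68 ± 0.17, Cyc1 11.45 ± 0.23 and 11.41 ± 0.29, and Cycs 12.16 ± 0.38 and 12.12 ± 0.17. Cox4i1 was 13.47 ± 0.05 and 13.44 ± 0.04, and Cox5a 13.07 ± 0.11 and 13.09 ± 0.21. The synthase heads Atp5a1 and Atp5b were 13.65 ± 0.05 and 13.64 ± 0.07, and 13.13 ± 0.10 and 13.07 ± 0.16. The c-ring genes were 13.06 ± 0.09 and 13.15 ± 0.23 for Atp5g1, 12.28 ± 0.14 and 12.30 ± 0.09 for Atp5g2, and 13.56 ± 0.12 and 13.55 ± 0.07 for Atp5g3. Sdha differed by more than the SD of either group, and the others named here by less than the larger of their SDs.

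Genes around the chain were read from 7 further lists, and none of their genes passed the test either. Under vehicle, 17 further structural subunits had 4 higher in diabetic mice (median -0.07). Of 36 assembly factors 22 were higher (median 0.10, 8 higher and 1 lower at an unadjusted p under 0.05). Of 16 genes of the citric acid cycle and pyruvate dehydrogenase 11 were higher (0.14, 3 higher at that threshold). The differences of these lists, here and for rosiglitazone in diabetic mice, are given only with DV706 and DV707 included. The part of those arrays in them was not tested. Of all genes, 52.9% were higher, and 10.7% higher and 7.39% lower at that threshold. Uqcr11, a small subunit of complex III, differed by -0.44, and was 11.58 and 11.18 on DV706 and DV707. Cox10, which makes heme for complex IV, differed by 0.56 and did not overlap with control (8.12 ± 0.06 in control and 8.67 ± 0.37 in diabetic nerve). Dlat, the acetyltransferase of pyruvate dehydrogenase, differed by 0.49 without overlap (9.86 ± 0.16 and 10.35 ± 0.24). Of all genes, 2.63% were higher in that way. Polrmt, the mitochondrial RNA polymerase, differed by 0.99, with 10.68 and 10.81 on DV706 and DV707 and 8.86 to 9.80 on the other 3. Of coenzyme Q synthesis 8 of 11 genes were higher, and Coq10a differed by -0.40. Of 7 carriers and channels 5 were higher, among them Vdac1, the outer membrane pore, by 0.13, and among isoforms of muscle and brown fat Slc25a4, an ADP/ATP carrier, differed by -0.19.

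With rosiglitazone in diabetic mice, 16 of 17 further subunits lay higher (median 0.13), 20 of 36 assembly factors (0.02), 8 of 16 citric acid cycle genes (-0.01), 7 of 11 coenzyme Q genes (0.07), 5 of 15 biogenesis regulators (-0.09) and 2 of 7 carriers and channels (-0.05). Atp5l, a subunit of the synthase stator, was 12.58 ± 0.19 under vehicle and 12.82 ± 0.07 with rosiglitazone, without overlap (0.245% of all genes were higher in that way). Coa3, a complex IV assembly factor, differed by 0.49 and was 11.53 and 11.73 on DV706 and DV707 against 12.38 to 12.86 elsewhere. Polrmt differed by -0.84, Coq8a by -0.17, Dlst of the citric acid cycle by 0.32, Slc25a5 by 0.35 and Slc25a4 by 0.22. In control mice rosiglitazone gave 15 of 17 further subunits higher (median 0.10), 31 of 36 assembly factors (0.16), 14 of 16 citric acid cycle genes (0.23), 11 of 11 coenzyme Q genes (0.28) and 8 of 15 regulators (0.07), a comparison that holds CR715.

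The isoforms of muscle and brown fat varied widely between arrays, except Cox4i2 and Slc25a4. All 5 lay higher with rosiglitazone in control mice, and none passed the test. Cox8b ran from 5.86 to 13.30, with a difference of 1.38 for diabetes under vehicle and 1.99 for rosiglitazone in control mice. Cox6a2, of heart and skeletal muscle, ran from 6.30 to 10.79 and was 10.48 on DV706, 10.79 on DR716 and 10.58 on DR720. Cox7a1 ran from 9.01 to 10.36 and was highest on CR715. Cox4i2, a lung isoform, stayed between 6.04 and 6.79, and Slc25a4 between 12.96 and 13.70. Acta1, the actin of skeletal muscle, ran from 4.67 to 13.27 and was highest on DR720.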

How the data were processed

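Expression was measured on 19 Affymetrix arrays, 1 per mouse, in 4 groups taken from the sample titles. The authors deposited linear intensities, 1 for each probe set on each array, made with RMA per the submitters' processing notes. The software, its settings and how values became linear are not given in the sources used here. Per the labels' protocols, RNA was purified with RNeasy columns and amplified with the NuGEN Ovation system. Probe sets were named from the platform annotation (34945 of 45101 with 1 symbol, 932 with several, 64 controls). Each gene was represented by its brightest probe set, and log2 was taken with no offset. Genes with a mean above the 40th percentile (log2 5.54), 13460 of 18193, were tested. Means of the 4 groups were fitted with limma 3.58.1 in R 4.3.3 (lmFit, eBayes) on all 19 arrays, with Benjamini-Hochberg adjustment per comparison. The script was tested on simulated data. The p-values measure the spread between mice, and the number of arrays limits the precision.

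The members and gene lists were chosen with earlier results of these data known. The text names, per comparison, the 3 members of complex I and the 1 each of complex II, complex III with cytochrome c, complex IV and complex V with the smallest p, the 3 with the smallest p in the interaction, the levels of central members, and the top gene of each further list for diabetes under vehicle and for rosiglitazone in diabetic mice. Other members, among them Ndufb10, Ndufs3, Ndufs7, Cox6b1 and Cox7c, were chosen after their values were seen. The order of the control vehicle arrays in complex III was not a planned reading either. Alternatives changed the filter, probe sets, scaling, offset, arrays and covariates. The covariates were the Gapdh difference, the skeletal muscle level and the sensory neuron level, 1 per fit. With either marker level as covariate the members' median kept its sign in each comparison. With the Gapdh difference as covariate the median turned for diabetes under vehicle (-0.03 to 0.04) and for the interaction (0.01 to -0.08). Such fits do not test the part of a tissue or of RNA quality. Protein sequences were not used here.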

Additional observations from a re-analysis of the deposited data

Results flagged for a closer look

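In 152 groups of 4 or 5 arrays, the highest or lowest array was compared with its nearest neighbour, with the gap set against the whole range. The gap passed Dixon's 95% limit in 20 of them: 12 on CR715, 6 on DR716, 1 on CR711 and 1 on CV702. Chance flags about 1 in 20 of independent groups, but these groups share arrays and members. Arrays that lie apart together can hide each other under this rule. None of the 20 was on DV706 or DV707, which were both low for many members.

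CR715 stood above the other 4 control rosiglitazone arrays in the mean centred level of all members (0.26, the others at most 0.05), of complex I (0.25), complex II (0.37), complex III (0.46), complex IV (0.20) and complex V (0.17). Single members were also highest there: Uqcrfs1 at 12.33 (others at most 11.63), Cox8a at 12.98 (12.63), Ndufa7 at 12.95 (12.74), Atp5c1 at 13.78 (13.49) and Atp5g3 at 13.76 (13.55). Atp5g1 went the other way on this array, at 12.90 against 13.09 or more on the others. The part of the adipocyte and muscle markers that were high on CR715 was not tested.

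DR716 lay apart from the other diabetic rosiglitazone arrays for 6 members. It was low for Sdhc at 11.26 (others at least 11.92), Ndufa8 at 12.08 (12.46), Cox5a at 12.72 (13.14) and Atp5h at 13.50 (13.63), and high for Uqcrc2 at 13.45 (others at most 12.91) and Ndufs7 at 13.74 (13.24). Its Gapdh difference between 3′ and 5′ probe sets was 1.75, the highest of the 17 arrays other than DV706 and DV707, and its part was not tested. CR711 was high for Atp5a1 at 13.74 (others at most 13.64), and CV702 for Uqcrc2 at 12.88 (12.71).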

How the results depend on the processing

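No member passed the adjusted threshold under any of the settings tried. All 328 alternative values of the member counts and medians kept their side of the threshold or moved by less than the spread between arrays. For the medians this rule decides little: the spread was 0.0984, above the size of every median as reported (largest 0.0979). A median could thus reach 0 and still count as unmoved. Of the other values (single members, single complexes, and counts at an unadjusted p), 2580 kept their direction and side of the test, stayed within 1 SD or, for counts, within 1.5 times, 240 moved further and 4 values of single members changed sign. Medians near 0 also changed sign: 21 of 164 alternative values for all members, for diabetes in either treatment or the interaction, and 88 of 984 for single complexes. For diabetes under vehicle, Cox8a was 0.014 without DV706 and DV707, 0.014 with CR715 also left out (a setting chosen after seeing the data), and 0.0034 with DV706, DV707, DV709, CR715 and DR716 left out, which removes the 2 low arrays. For rosiglitazone in diabetic mice, Ndufs4 was -0.093 with the mean of all its probe sets, of which 2 of 4 point down. Counts at an unadjusted p moved more than adjusted ones: for rosiglitazone in diabetic mice 12 members were higher as reported, 3 with only the groups compared, 5 with arrays centred on their median and 1 with the Gapdh difference as covariate. For diabetes under vehicle, 5 were higher and 3 lower as reported, 9 and 2 with arrays centred, and 0 and 0 with that covariate. For rosiglitazone in control mice 3 were higher as reported and 10 with array weights. The counts over all genes in these fits are not given here, so these counts do not set the members apart from other genes. All-gene counts also moved: with 1 array left out, 175 to 1160 genes were higher for rosiglitazone in diabetic mice. The fit on only the groups compared was not run for the interaction. No paired analysis was possible because no replicate number is shared between groups. Dim probe sets, such as that of Cox7c, limit what their values can show.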
